A study of Mus musculus with 11 samples.

Results

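The Bcl2 family, the caspases and the genes controlled by p53 were followed as 1 group of 42 genes in mouse Leydig tumor cells (MLTCs) in which *Mamld1* had been knocked down. The members were all genes of a list drawn up by function, from the survival and killer proteins of the Bcl2 family through the apoptosome, the inhibitors of apoptosis, the caspases and the death receptors to p53 and its targets, and the list names genes by function without a threshold on any value, though it was drawn up with earlier results of these data known. Of the 42 listed genes, 40 had at least 1 named probe among the 17021 genes named on the array, while *Bcl2a1a* and *Bok* had none. These 40 genes were read by 64 probes. Of them, 37 genes (58 probes) had a probe that stood well above background on all arrays of a group, in 1 group or more, and were tested among 11820 genes. *Hrk*, *Xiap* and *Fas* were not tested, because no probe of theirs met that condition.

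The arrays measured RNA of MLTC-1, a cultured line of Leydig tumor cells, 48 h after transfection in Lipofectamine RNAiMAX at 20 nM. The control group received non-targeting RNA 4611G (4 arrays), and the others received siRNA1 (4 arrays) or siRNA2 (3 arrays), which differ in sequence and are both directed at *Mamld1*, a gene of male sex development expressed in Leydig cells. All arrays came from 1 cell line, and nothing in the labels says that they came from separate cultures, so that p-values measure the spread between these arrays, which may be technical. The knockdown is a loss of transcript for a limited time, not a deletion. The study's methods describe an addition of hCG, the gonadotropin that stimulates Leydig cells, before harvest, which the sample labels do not name.

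A level is given below as the percentage of the control mean for the same probe, after each array was scaled to its 75th percentile of signal. The control mean was taken on the log scale, and no level can be compared between probes. A difference is given on the log2 scale with its standard error (SE) from limma fitted across all tested probes, and a gene was called where its brightest probe had a p of 0.05 or less after Benjamini-Hochberg adjustment. On this scale the level of *Mamld1* was 88, 85.2, 119 and 112% on the 4 control arrays, 46.6, 77, 48.1 and 44.1% on the 4 siRNA1 arrays and 45.3, 68.6 and 65.5% on the 3 siRNA2 arrays. All siRNA arrays lay below all control arrays, with siRNA1 array 2 apart from the rest of its group. Log2 differences were -0.93 ± 0.20 (SE; adjusted p = 0.0057) with siRNA1 and -0.77 ± 0.22 (SE; adjusted p = 0.0309) with siRNA2. The *Mamld1* probe was dim, with a mean control signal of 28.8, and the call with siRNA2 was lost without control array 3 or 4 or siRNA2 array 1 or 3. With normexp background correction on the median spot signals, the *Mamld1* differences turned to 0.647 and 0.439.

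Apoptosis through mitochondria depends on the balance between survival members of the Bcl2 family and pore formers, which BH3 proteins tip by binding to either side. Once the pore opens, cytochrome c joins Apaf1 and starts the caspase cascade, whereas death receptors start it at the cell surface through Fadd and caspase 8, a step that Cflar restrains. The transcription factor p53 raises several BH3 genes and cell cycle inhibitors after DNA damage and is itself held down by Mdm2. In the testis, Leydig cells make testosterone, and their number reflects both division and cell death.

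Some facts of the whole series bear on all of these values. All 10 Leydig cell markers examined were well above background on every array. Their summed level was 88.8 to 108% on the control arrays, 75.4 to 87.9% on the siRNA1 arrays and 85.2 to 103% on the siRNA2 arrays, and 4 of the 10 were called lower with siRNA1 and 2 with siRNA2, against 18.7% and 12.2% of all genes. The 75th percentile of signal was 469.7 to 582 on the control arrays, 601 to 774 on the siRNA1 arrays and 488 to 579 on the siRNA2 arrays. There were 3 slides, and each held arrays of all 3 groups. The summed level of interferon response genes was taken over the 11 that were tested. It was 94.0 to 106% on the control arrays, 86.9 to 99.8% on the siRNA1 arrays and 131 to 137% on the siRNA2 arrays. Such a sum weighs bright genes most. Of the 11, 4 were called higher with siRNA2 (8.04% of all genes) and 1 lower (12.2%). Their median log2 difference with siRNA2 was 0.12 (-0.48 to 0.51). With siRNA1, 2 were called higher (10.6% of all genes) and 2 lower (18.7%). Of the 18 genes on the array, these 11 were above background throughout and *Ifit1*, *Oas1a*, *Oas2*, *Oasl2* and *Ifi44* on no array. Of 6 fibroblast markers only 2 were tested. Their summed level was 82.1 to 128%, 75.6 to 126% and 129.8 to 208%, respectively. *Col1a1*, *Dcn* and *Lum* were above background on no array. Of the 5 macrophage markers on the array only 1 was tested, and it was not called with either siRNA. Its level was 82.4 to 116%, 76.8 to 104% and 55.7 to 89.1%, in the same order. *Ptprc*, *Adgre1* and *Lyz2* were above background on no array. The part of the lower Leydig marker level of the siRNA1 arrays, and of the interferon, fibroblast and macrophage levels of the siRNA2 arrays, in the results below was not tested. In bulk RNA, fewer cells of a type and less RNA per cell cannot be told apart.

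As a group, the members did not shift in 1 direction with either siRNA. With siRNA1, 10 of the 37 tested members were called, against 29.3% of all genes tested. Of these, 6 were higher (10.6% of all genes) and 4 were lower (18.7% of all genes). With siRNA2, 11 of 37 were called, against 20.2% of all genes, with 7 higher (8.04% of all genes) and 4 lower (12.2% of all genes). The median log2 difference of the members was 0.04 with siRNA1 and 0.02 with siRNA2, against -0.08 and -0.02 over all genes tested. These counts depended on the signal used. Normexp on the median spot signals, which changes both the background correction and the signal it starts from, left fewer calls. It left 2 members called with siRNA1, *Cflar* and *Ccng1*, and 0 with siRNA2 (8 and 4 by limma at an unadjusted p under 0.05). The share of all genes called with normexp was not counted.

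With both siRNAs, *Bcl2l1*, *Bmf*, *Casp6* and *Sesn1* were higher and *Cflar* was lower. These are 5 of 37 members, against 9.09% of all genes called in the same direction with both siRNAs (3.87% higher and 5.23% lower). The comparisons share the 4 control arrays. With siRNA2, 1 of 3 tested probes was called for *Bcl2l1* and for *Sesn1*, 1 of 2 for *Bmf* and 1 of 4 for *Cflar*. *Casp1* was called in opposite directions, as were 1.31% of all genes. Changes of at least 2-fold were found with siRNA1 for 3 members, *Cflar*, *Ccng1* and *Bmf* (3.09% of all genes), and with siRNA2 for 0 members (2.45% of all genes), where limma without the fold condition called 11. The siRNA arrays lay wholly above or wholly below the control arrays for 11 of 37 members with siRNA1 (31.8% of all genes) and for 16 of 37 with siRNA2 (31.2% of all genes). With the slide as a block, limma kept the 10 and 11 calls against control and added others. Those added were *Bak1*, *Bnip3l*, *Cycs* and *Birc3* with siRNA1 and *Casp9* and *Gadd45a* with siRNA2. The share of all genes called with the block was not counted.

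**Figure D1:**
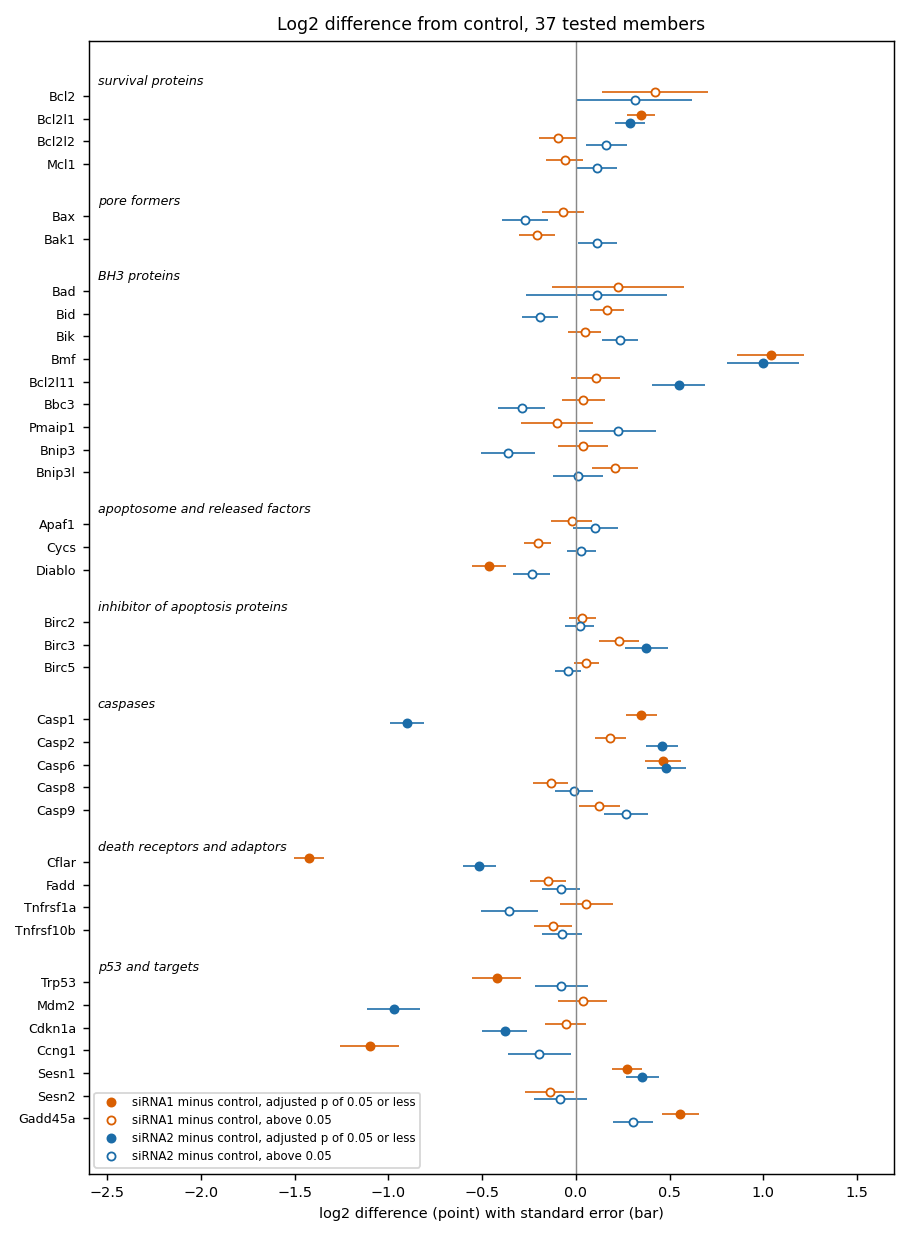
Log2 difference from the control arrays for the 37 tested members, in order of role, with siRNA1 (orange, 4 arrays against 4) and siRNA2 (blue, 3 arrays against 4), by the brightest probe of each gene. Bars show the SE from limma and filled points an adjusted p of 0.05 or less; the points farthest to the left are *Cflar* and *Ccng1* with siRNA1 and *Mdm2* and *Casp1* with siRNA2, and the farthest to the right is *Bmf* with both.

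Among the survival proteins, which hold the pore formers in check, *Bcl2l1* was the 1 gene called by its brightest probe. *Bcl2l1* encodes Bcl-xL. Its level by the brightest probe was 94.2, 103, 108 and 95.6% on the 4 control arrays, 122, 126, 125 and 135% on the 4 siRNA1 arrays and 122, 122 and 123% on the 3 siRNA2 arrays. Every siRNA array was higher than every control array, and the log2 differences were 0.35 ± 0.07 (SE; adjusted p = 0.00492) with siRNA1 and 0.29 ± 0.08 (SE; adjusted p = 0.0261) with siRNA2. The other 2 tested probes were not called with either siRNA. The second gave -0.09 and -0.27, with 1 control array at 316%, and the third gave 0.06 and 0.13. The call with siRNA2 was lost without control array 1 or 4 or without any 1 of the siRNA2 arrays, where the largest adjusted p was 0.0828.

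*Mcl1*, a short-lived survival protein, was not called by its brightest probe, with log2 differences of -0.06 with siRNA1 and 0.11 with siRNA2. Its dimmer probe was higher with siRNA1, by 0.37 ± 0.11 (SE; adjusted p = 0.0268). The level of that probe was 107, 109, 104 and 81.9% on the 4 control arrays, 125, 124, 147 and 122% on the 4 siRNA1 arrays and 114, 116 and 103% on the 3 siRNA2 arrays. The siRNA1 arrays lay above all control arrays on it. *Bcl2* and *Bcl2l2*, which encodes Bcl-w, were not called, with log2 differences between -0.10 and 0.42, and the *Bcl2* signal was dim and its 4 control arrays ranged from 54.1 to 175%.

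The pore formers *Bax* and *Bak1*, whose products open the outer membrane of mitochondria, were not called against the control arrays. *Bak1* differed between the siRNAs. Its level was 92.2, 100.03, 101 and 108% on the 4 control arrays, 78.5, 97.3, 82.3 and 89.7% on the 4 siRNA1 arrays and 96.3, 112 and 118% on the 3 siRNA2 arrays. All 4 siRNA1 arrays lay below the control mean, 2 of the 3 siRNA2 arrays lay above it, and the siRNA groups overlapped. The log2 difference of siRNA1 from siRNA2 was -0.32 ± 0.11 (SE; adjusted p = 0.0477). A second probe gave a difference of -0.32 that was not called (adjusted p = 0.123). The call of the brightest probe was lost when any of 9 arrays was left out, with a largest adjusted p of 0.175.

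Of the 9 tested BH3 proteins, which sense stress and trigger the pore formers, *Bmf* alone was called with siRNA1, against 29.3% of all genes, and *Bmf* and *Bcl2l11* were called with siRNA2, against 20.2% of all genes. Bmf is held on the cytoskeleton until it is released. The level of *Bmf* was 100.5, 111, 87.5 and 103% on the 4 control arrays, 258, 229.8, 133 and 226% on the 4 siRNA1 arrays and 189, 203 and 207% on the 3 siRNA2 arrays. All 7 siRNA arrays were higher than all control arrays. The group means were 100.4% ± 9.65, 212% ± 54.2 and 199.8% ± 9.41 (SD, n = 4, 4 and 3), and the log2 differences were 1.04 ± 0.18 (SE; adjusted p = 0.00143) with siRNA1 and 1.00 ± 0.19 (SE; adjusted p = 0.00414) with siRNA2. A dimmer probe of the same transcript gave 0.02 and 0.12 and was not called with either siRNA (adjusted p = 0.931 and 0.724). The third probe was not well above background on any array.

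*Bcl2l11*, which encodes Bim, the BH3 protein that binds all survival members, was higher with siRNA2 and not called with siRNA1, and the difference between the siRNAs was called. Its level was 89.8, 91.3, 96.7 and 126% on the 4 control arrays, 97.7, 98.8, 112 and 124% on the 4 siRNA1 arrays and 138, 135 and 168% on the 3 siRNA2 arrays. The 3 siRNA2 arrays lay above all other arrays. The log2 difference was 0.55 ± 0.14 (SE; adjusted p = 0.02) with siRNA2 and 0.11 ± 0.13 (SE; adjusted p = 0.601) with siRNA1, and siRNA1 differed from siRNA2 by -0.44 ± 0.14 (SE; adjusted p = 0.043). A second probe gave 0.66 ± 0.18 (SE; adjusted p = 0.0286), 0.05 and -0.61 ± 0.18 (SE; adjusted p = 0.0344), in the same order. Without siRNA2 array 3 or without control array 1 or 2 the call with siRNA2 was lost, with log2 differences no lower than 0.45 when any array was left out. The call between the siRNAs was lost without any 1 of 8 arrays.

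*Bid*, which links death receptors to mitochondria, was not called against the control arrays but differed between the siRNAs. Its level was 97.7, 101, 92.6 and 109% on the 4 control arrays, 124, 119, 109.5 and 98.4% on the 4 siRNA1 arrays and 89.1, 89.7 and 84.2% on the 3 siRNA2 arrays. All siRNA2 arrays lay below all others, and the log2 difference of siRNA1 from siRNA2 was 0.36 ± 0.10 (SE; adjusted p = 0.0219), a call lost without any 1 of 4 arrays. The other 6 tested BH3 genes, *Bad*, *Bik*, *Bbc3*, *Pmaip1*, *Bnip3* and *Bnip3l*, were not called in any comparison, although with the slide as a block *Bnip3l* was called with siRNA1 and *Bnip3* between the siRNAs. Their log2 differences from control lay between -0.36 (*Bnip3* with siRNA2) and 0.24 (*Bik* with siRNA2). These include *Bbc3* and *Pmaip1*, which encode the p53-induced proteins Puma and Noxa. For *Bad*, 1 control array was left out because its spot was marked as an outlier, and 1 siRNA1 array stood at 255%.

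Among the proteins of the apoptosome and those released from mitochondria, *Diablo* was lower with siRNA1. Its product, Smac, is released with cytochrome c and blocks the inhibitors of apoptosis. The level of *Diablo* was 105, 91.7, 93.5 and 111% on the 4 control arrays, 74.9, 76.7, 66.3 and 73% on the 4 siRNA1 arrays and 81.9, 81.3 and 92.2% on the 3 siRNA2 arrays. All siRNA1 arrays were lower than all control arrays, with a log2 difference of -0.46 ± 0.09 (SE; adjusted p = 0.00333). Of the siRNA2 arrays, 2 lay between these groups and 1 lay within the control range, with a log2 difference of -0.23 ± 0.10 (SE; adjusted p = 0.129).

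*Cycs*, the gene of cytochrome c, was not called against the control arrays and differed between the siRNAs by -0.23 ± 0.08 (SE; adjusted p = 0.0492). Its level was 93.8, 101, 104 and 101% on the 4 control arrays, 84.8, 90.8, 82.3 and 89.8% on the 4 siRNA1 arrays and 98, 104 and 105% on the 3 siRNA2 arrays. The siRNA1 arrays lay below all others. Its 2 dimmer probes gave -0.21 and -0.21 and were not called, and the call of the brightest was lost when any 1 of the 11 arrays was left out. *Apaf1*, the core of the apoptosome, was not called by its brightest probe, with log2 differences of -0.02 with siRNA1 and 0.10 with siRNA2. A probe of *Apaf1* with a mean control signal of 17.7 differed between the siRNAs by 0.60 ± 0.20 (SE; adjusted p = 0.0497). Its level was 105, 92.2, 114 and 90.5% on the 4 control arrays, 123, 133, 139 and 132% on the 4 siRNA1 arrays and 64.4, 78.1 and 131% on the 3 siRNA2 arrays. The siRNA2 arrays were spread widely on it, and 1 of them lay within the range of the siRNA1 arrays.

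Of the inhibitors of apoptosis, *Birc3*, which encodes cIAP2, a ubiquitin ligase of the TNF receptor pathway, was called with siRNA2. Its level was 105, 112, 90.9 and 93.7% on the 4 control arrays, 123, 126, 119 and 103% on the 4 siRNA1 arrays and 141, 137 and 113% on the 3 siRNA2 arrays. The siRNA2 arrays lay above all control arrays, by a log2 difference of 0.38 ± 0.12 (SE; adjusted p = 0.0428). With siRNA1 the difference was 0.23 ± 0.11 (SE; adjusted p = 0.135). Leaving out any of 8 arrays ended the call with siRNA2. *Birc2*, its neighbour in the family, and *Birc5*, which encodes the mitotic protein survivin, were not called and differed from control by log2 values between -0.04 and 0.06.

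Of the 5 tested caspases, 2 were called with siRNA1, against 29.3% of all genes, and 3 with siRNA2, against 20.2% of all genes. *Casp1* encodes the protease that matures interleukin-1 beta in the inflammasome rather than an executioner of apoptosis. The level of *Casp1* was 107, 101, 97.4 and 95.4% on the 4 control arrays, 130.3, 124, 132 and 124% on the 4 siRNA1 arrays and 60.8, 49.9 and 50.9% on the 3 siRNA2 arrays. The 3 groups did not overlap, with all siRNA1 arrays above and all siRNA2 arrays below the control arrays. Against control, the log2 difference was 0.35 ± 0.08 (SE; adjusted p = 0.00996) with siRNA1 and -0.90 ± 0.09 (SE; adjusted p = 6.72e-05) with siRNA2. The siRNAs differed by 1.25 ± 0.09 (SE; adjusted p = 5.62e-06), and these 3 calls were kept whichever array was left out. Within slides 1, 2 and 3 the *Casp1* difference from control was 0.38, 0.39 and 0.33 with siRNA1 and -0.91, -0.97 and -0.77 with siRNA2.

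*Casp6*, an executioner caspase, rose with both siRNAs. Its level was 106, 96.5, 88.1 and 111% on the 4 control arrays, 152, 147, 130.3 and 124% on the 4 siRNA1 arrays and 143, 138 and 139% on the 3 siRNA2 arrays. All 7 siRNA arrays were higher than the control arrays, by log2 differences of 0.46 ± 0.10 (SE; adjusted p = 0.0046) with siRNA1 and 0.48 ± 0.10 (SE; adjusted p = 0.00773) with siRNA2. The siRNA1 and siRNA2 arrays overlapped, and the difference between them was -0.02 ± 0.10 (SE; adjusted p = 0.914).

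*Casp2*, an initiator caspase with links to DNA damage, was called with siRNA2 and not with siRNA1. Its level was 103, 101, 91.5 and 104% on the 4 control arrays, 119, 108, 119 and 109.7% on the 4 siRNA1 arrays and 149, 137 and 127% on the 3 siRNA2 arrays. Both siRNA groups lay above the control arrays and the siRNA2 arrays above the siRNA1 arrays. The log2 differences were 0.19 ± 0.08 (SE; adjusted p = 0.116) with siRNA1 and 0.46 ± 0.09 (SE; adjusted p = 0.00388) with siRNA2, and siRNA1 differed from siRNA2 by -0.27 ± 0.09 (SE; adjusted p = 0.0423), a call lost when any of 9 arrays was left out. *Casp8*, the initiator at death receptors, and *Casp9*, the initiator at the apoptosome, were not called, with log2 differences between -0.13 and 0.27.

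*Cflar* had the largest difference with siRNA1 among the 37 tested members. It encodes c-FLIP, which resembles caspase 8 without its protease activity and blocks it at death receptors. By its brightest probe the level of *Cflar* was 92.2, 108, 93.3 and 107% on the 4 control arrays, 39.4, 36.8, 35.1 and 37.9% on the 4 siRNA1 arrays and 72.1, 68.4 and 69.4% on the 3 siRNA2 arrays. The 3 groups did not overlap and lay in the order control, siRNA2 and siRNA1. The group means were 100.3% ± 8.73, 37.3% ± 1.84 and 70.0% ± 1.92 (SD, n = 4, 4 and 3). The log2 differences were -1.42 ± 0.08 (SE; adjusted p = 1.27e-06) with siRNA1 and -0.52 ± 0.09 (SE; adjusted p = 0.00209) with siRNA2, and the siRNAs differed by -0.91 ± 0.09 (SE; adjusted p = 3.91e-05). These 3 calls were kept whichever array was left out. Within slides 1, 2 and 3 the *Cflar* difference from control was -1.50, -1.38 and -1.34 with siRNA1 and -0.63, -0.45 and -0.47 with siRNA2.

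The 4 probes of *Cflar* did not give the same result. A dimmer probe of the same transcript had a level of 104, 105, 85.4 and 108% on the 4 control arrays, 52.6, 46.1, 48 and 56.2% on the 4 siRNA1 arrays and 76.5, 88.3 and 95% on the 3 siRNA2 arrays. Here the siRNA1 arrays again lay below all others, with a log2 difference of -0.98 ± 0.11 (SE; adjusted p = 7.5e-05), but the siRNA2 arrays overlapped the control arrays, at -0.21 ± 0.12 (SE; adjusted p = 0.252). The other 2 probes, of another *Cflar* transcript and dimmer still, gave 0.01 and 0.08 with siRNA1 and 0.08 and 0.24 with siRNA2 and were not called. The reason for the difference between the probes was not tested.

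**Figure D2:**
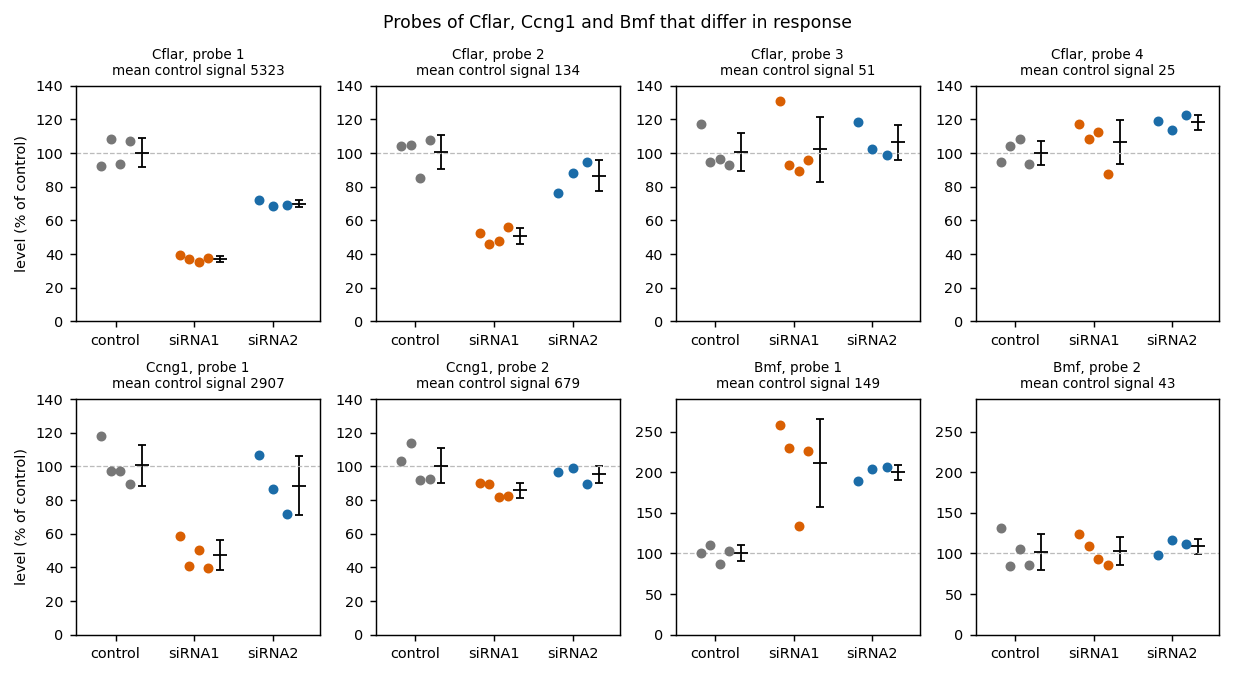
Level on each array, in percent of the control mean, for the tested probes of *Cflar* (4), *Ccng1* (2) and *Bmf* (2), from the brightest probe of each gene on the left, with the mean control signal above each panel. Points are arrays (grey control, orange siRNA1, blue siRNA2), and bars show the mean and SD. The siRNA1 arrays lie below all others on *Cflar* probes 1 and 2 and overlap the control arrays on probes 3 and 4. With both siRNAs the arrays overlap the control arrays on the dimmer probe of *Bmf* and lie above them on the brighter one.

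The death receptors and their adaptor were not called. *Fadd*, *Tnfrsf1a*, the main receptor for TNF, and *Tnfrsf10b*, the receptor for TRAIL, had log2 differences between -0.35 (*Tnfrsf1a* with siRNA2) and 0.06 (*Tnfrsf1a* with siRNA1). The level of *Tnfrsf1a* was 91.8, 118, 111 and 83.3% on the 4 control arrays, 88.7, 90.1, 117 and 125% on the 4 siRNA1 arrays and 79.6, 79 and 76.1% on the 3 siRNA2 arrays. The siRNA2 arrays lay below every control array, though the adjusted p was 0.141.

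**Figure D3:**
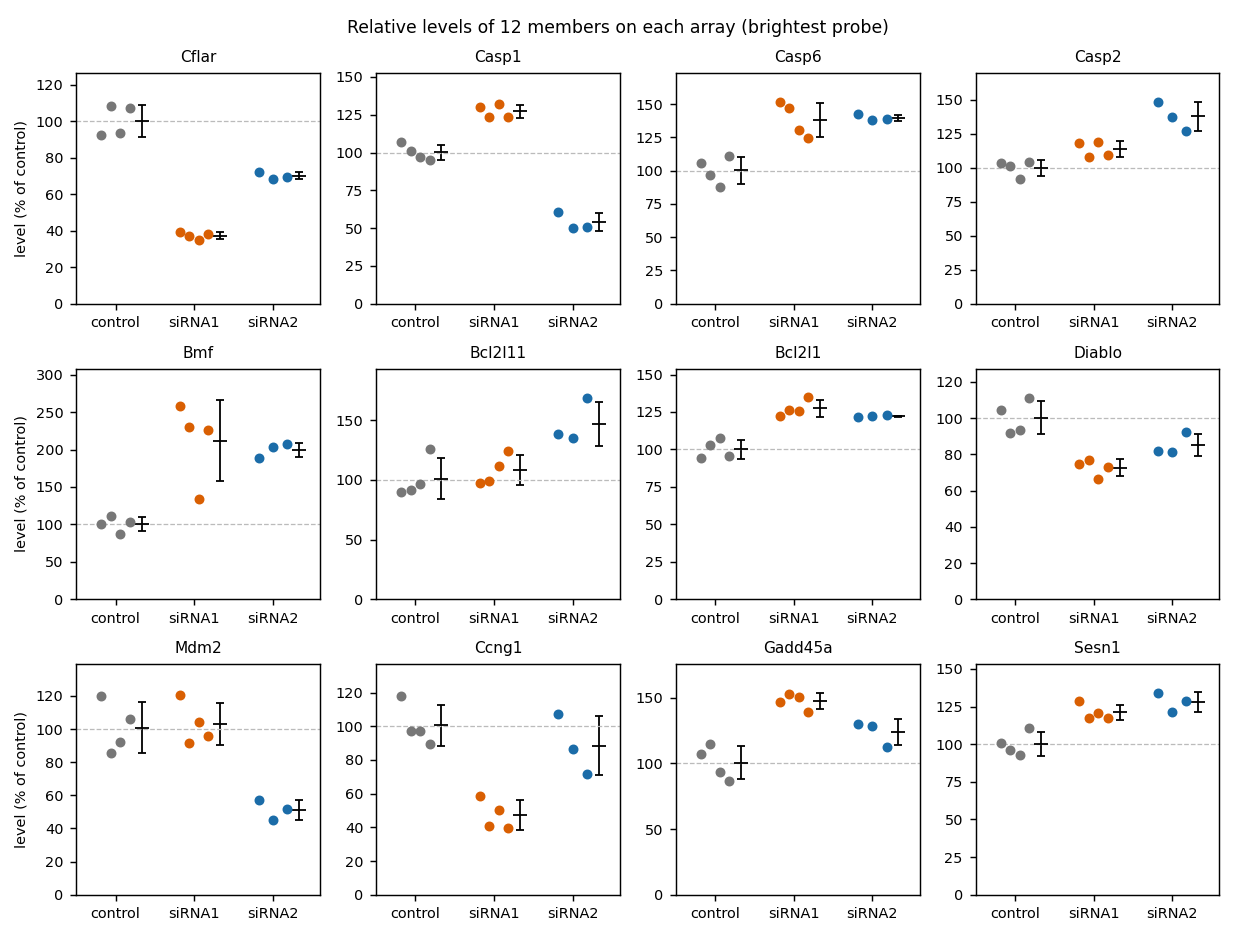
Level on each array, in percent of the control mean of the same probe, for 12 members by their brightest probe. Points are arrays (grey, 4 control, orange, 4 siRNA1, blue, 3 siRNA2), the bars beside them show the mean and SD, and the dashed line marks 100%. The siRNA1 and siRNA2 arrays do not overlap for *Cflar*, *Casp1*, *Mdm2*, *Ccng1*, *Bcl2l11*, *Casp2*, *Diablo* and *Gadd45a*. *Casp6*, *Bmf*, *Bcl2l1*, *Sesn1* and *Casp2* lie above the control arrays with both.

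Of p53 and its 6 listed targets, all of which were tested, 4 were called with siRNA1 (2 higher and 2 lower), against 29.3% of all genes. With siRNA2, 3 were called (1 higher and 2 lower), against 20.2% of all genes. These counts leave out the p53-induced genes *Bbc3* and *Pmaip1*, listed under the BH3 proteins, which were not called with either siRNA. *Trp53* itself, the gene of p53, was lower with siRNA1. Its level was 108, 89.3, 99.5 and 104% on the 4 control arrays, 79.4, 91.6, 64.1 and 66.6% on the 4 siRNA1 arrays and 82.1, 95.2 and 109% on the 3 siRNA2 arrays. The log2 difference was -0.42 ± 0.13 (SE; adjusted p = 0.0347) with siRNA1 and -0.08 ± 0.14 (SE; adjusted p = 0.79) with siRNA2. The siRNA1 arrays overlapped the control arrays by 1 array, and the call was lost when any of 6 arrays was left out. A dimmer probe gave -0.30 ± 0.12 (SE; adjusted p = 0.0981) with siRNA1.

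Promoter sequence was examined because several of these genes are textbook p53 targets yet moved in different directions. Windows of 300 bases, from 250 before the start site to 50 after it, were used for 38 of the 42 members (51 windows). They came from the RefSeq promoter table of build GRCm38.p6. The rest had no entry or lay on a chromosome whose windows were left out for the members. The windows of all genes included that chromosome, so the shares below are not strictly like for like. On either strand, the p53 half-site (allowing every base its consensus allows) occurred in 10 windows of 10 members, which is 19.6% of the member windows, against 8.36% of 32851 windows of all genes. The 4 windows printed here belong to p53 targets whose levels moved differently, with the half-sites in capitals. They lie at chr10:117710709-117711008 (minus strand) for *Mdm2*, chr17:29090729-29091028 (plus strand) for *Cdkn1a*, chr11:40755237-40755536 (minus strand) for *Ccng1* and chr6:67037358-67037657 (minus strand) for *Gadd45a*, each written from 5′ to 3′ on the strand of its gene.
Mdm2: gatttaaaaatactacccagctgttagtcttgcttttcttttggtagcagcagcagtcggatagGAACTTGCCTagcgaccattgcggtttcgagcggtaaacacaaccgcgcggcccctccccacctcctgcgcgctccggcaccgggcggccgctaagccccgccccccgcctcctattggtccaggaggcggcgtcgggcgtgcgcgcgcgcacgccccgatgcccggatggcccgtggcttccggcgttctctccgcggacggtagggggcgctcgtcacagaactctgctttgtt
Cdkn1a: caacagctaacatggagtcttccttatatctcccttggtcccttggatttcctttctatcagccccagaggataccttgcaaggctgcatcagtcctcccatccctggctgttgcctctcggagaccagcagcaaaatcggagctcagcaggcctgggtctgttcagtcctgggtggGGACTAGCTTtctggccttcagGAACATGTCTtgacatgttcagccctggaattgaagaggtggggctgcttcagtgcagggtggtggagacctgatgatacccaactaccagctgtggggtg
Ccng1: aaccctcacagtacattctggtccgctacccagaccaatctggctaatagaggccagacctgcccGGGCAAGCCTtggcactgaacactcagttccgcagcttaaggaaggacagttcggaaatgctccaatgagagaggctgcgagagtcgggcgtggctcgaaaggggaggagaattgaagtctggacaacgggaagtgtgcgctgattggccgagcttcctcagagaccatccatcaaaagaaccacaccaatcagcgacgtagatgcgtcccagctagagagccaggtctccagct
Gadd45a: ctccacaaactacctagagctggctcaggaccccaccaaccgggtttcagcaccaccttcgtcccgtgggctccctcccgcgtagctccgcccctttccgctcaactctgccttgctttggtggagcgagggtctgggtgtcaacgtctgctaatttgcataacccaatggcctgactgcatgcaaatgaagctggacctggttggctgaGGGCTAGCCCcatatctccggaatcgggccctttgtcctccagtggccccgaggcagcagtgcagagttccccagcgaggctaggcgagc
The half-site lay 186 to 177 bases before the start in *Mdm2*, 185 to 176 bases before it in *Ccng1* and 40 to 31 bases before it in *Gadd45a*. *Cdkn1a* held a pair of them, at 73 to 64 and 51 to 42 bases before the start. Further half-sites were found for *Bax*, *Birc2*, *Birc5*, *Bmf*, *Sesn1* and *Trp53*. A match is a description of the letters and says nothing of binding in these cells, and the known p53 sites of several of these genes lie outside such a window. The FOXO core TGTTTAC, searched on both strands, was in 4 windows (7.84% against 3.65% of all windows), those of *Bbc3*, *Bcl2l11*, *Mdm2* and *Sesn1*. An NF-kB site was in 5 windows (9.8% against 4.51%), those of *Bbc3*, *Bcl2l1*, *Birc5*, *Bmf* and *Trp53*.

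*Mdm2*, the ubiquitin ligase that degrades p53 and is induced by it, was lower with siRNA2. Its level was 120.0, 85.4, 92.3 and 106% on the 4 control arrays, 120.4, 91.8, 104 and 95.9% on the 4 siRNA1 arrays and 57, 45 and 51.6% on the 3 siRNA2 arrays. The siRNA2 arrays lay below all arrays of the other groups, which overlapped each other. These differences were -0.97 ± 0.14 (SE; adjusted p = 0.000705) with siRNA2 and 0.04 ± 0.13 (SE; adjusted p = 0.87) with siRNA1, and siRNA1 differed from siRNA2 by 1.01 ± 0.14 (SE; adjusted p = 0.000414). A second probe gave -0.96 ± 0.15 (SE; adjusted p = 0.00114), 0.30 ± 0.14 (SE; adjusted p = 0.136) and 1.26 ± 0.15 (SE; adjusted p = 0.000143), in the same order. Both calls of the brightest probe were kept whichever array was left out. Within slides 1, 2 and 3 the *Mdm2* difference from control with siRNA2 was -1.04, -1.04 and -0.83.

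*Cdkn1a*, which encodes the cell cycle inhibitor p21, was lower with siRNA2 as well, with a log2 difference of -0.38 ± 0.12 (SE; adjusted p = 0.0475). Its level was 114, 88.4, 96.4 and 103% on the 4 control arrays, 105, 99.4, 85.7 and 96.2% on the 4 siRNA1 arrays and 85.9, 66.9 and 79% on the 3 siRNA2 arrays. The siRNA2 arrays were all below the lowest control array. With siRNA1 the log2 difference was -0.05 ± 0.11 (SE; adjusted p = 0.759), and the difference between the siRNAs was not called (0.33 ± 0.12 (SE; adjusted p = 0.0716)). The call with siRNA2 was lost when any of 9 arrays was left out.

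*Ccng1*, the gene of cyclin G1, a p53 target that acts on Mdm2, was lower in siRNA1-transfected MLTCs. Its level by the brightest probe was 118, 97, 97.3 and 89.7% on the 4 control arrays, 58.4, 40.9, 50.2 and 39.6% on the 4 siRNA1 arrays and 107, 86.6 and 71.9% on the 3 siRNA2 arrays. All siRNA1 arrays lay below all other arrays, and siRNA2 overlapped the control arrays. The log2 differences were -1.10 ± 0.16 (SE; adjusted p = 0.000441) with siRNA1 and -0.20 ± 0.17 (SE; adjusted p = 0.509) with siRNA2, and the siRNAs differed by -0.90 ± 0.17 (SE; adjusted p = 0.00271). A dimmer probe of the same transcript gave -0.22 ± 0.09 (SE; adjusted p = 0.0922), -0.07 and -0.15 and was not called.

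*Gadd45a*, a p53 target of the growth arrest and stress response, was higher with siRNA1. Its level was 107, 115, 93.3 and 87% on the 4 control arrays, 147, 153, 150.4 and 139% on the 4 siRNA1 arrays and 130.3, 129 and 113% on the 3 siRNA2 arrays. All siRNA1 arrays lay above all other arrays. The log2 difference was 0.56 ± 0.10 (SE; adjusted p = 0.00197) with siRNA1 and 0.30 ± 0.11 (SE; adjusted p = 0.0769) with siRNA2. The difference between the siRNAs was not called (0.25 ± 0.11 (SE; adjusted p = 0.12)).

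*Sesn1*, which encodes sestrin 1, a stress protein that restrains mTORC1, was higher with both siRNAs. Its level by the brightest probe was 101, 96.3, 92.8 and 111% on the 4 control arrays, 129, 118, 120.4 and 117% on the 4 siRNA1 arrays and 134, 121 and 129% on the 3 siRNA2 arrays. The siRNA arrays all lay above the control arrays, by 0.27 ± 0.08 (SE; adjusted p = 0.0257) with siRNA1 and 0.36 ± 0.09 (SE; adjusted p = 0.0148) with siRNA2. The other 2 probes gave 0.41 ± 0.13 (SE; adjusted p = 0.0358) and 0.56 ± 0.17 (SE; adjusted p = 0.0309) with siRNA1 and 0.30 ± 0.14 (SE; adjusted p = 0.182) and 0.32 ± 0.18 (SE; adjusted p = 0.28) with siRNA2. Hence all 3 probes were called with siRNA1 and 1 with siRNA2. The call of the brightest probe was lost with siRNA1 when any of 5 arrays was left out and with siRNA2 without array 1 of that group. *Sesn2*, its relative, was not called, at -0.14 and -0.08.

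Compared directly, siRNA1 and siRNA2 differed for 9 of 37 members, against 26.3% of all genes tested. *Bid*, *Casp1* and *Mdm2* were higher with siRNA1 (11.8% of all genes), and *Bak1*, *Bcl2l11*, *Cycs*, *Casp2*, *Cflar* and *Ccng1* were lower (14.4% of all genes). Only *Casp1* and *Mdm2* differed by at least 2-fold, which 3.53% of all genes did. The siRNA1 and siRNA2 arrays did not overlap for 12 of 37 members (35.1% of all genes). With the slide as a block, *Bcl2l2*, *Bnip3*, *Cdkn1a* and *Gadd45a* were called in addition to these 9. The share of all genes called with the block was not counted. The calls of *Casp1*, *Mdm2*, *Cflar* and *Ccng1* held whichever array was left out, and those of *Bid*, *Bak1*, *Bcl2l11*, *Cycs* and *Casp2* did not.

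**Figure D4:**
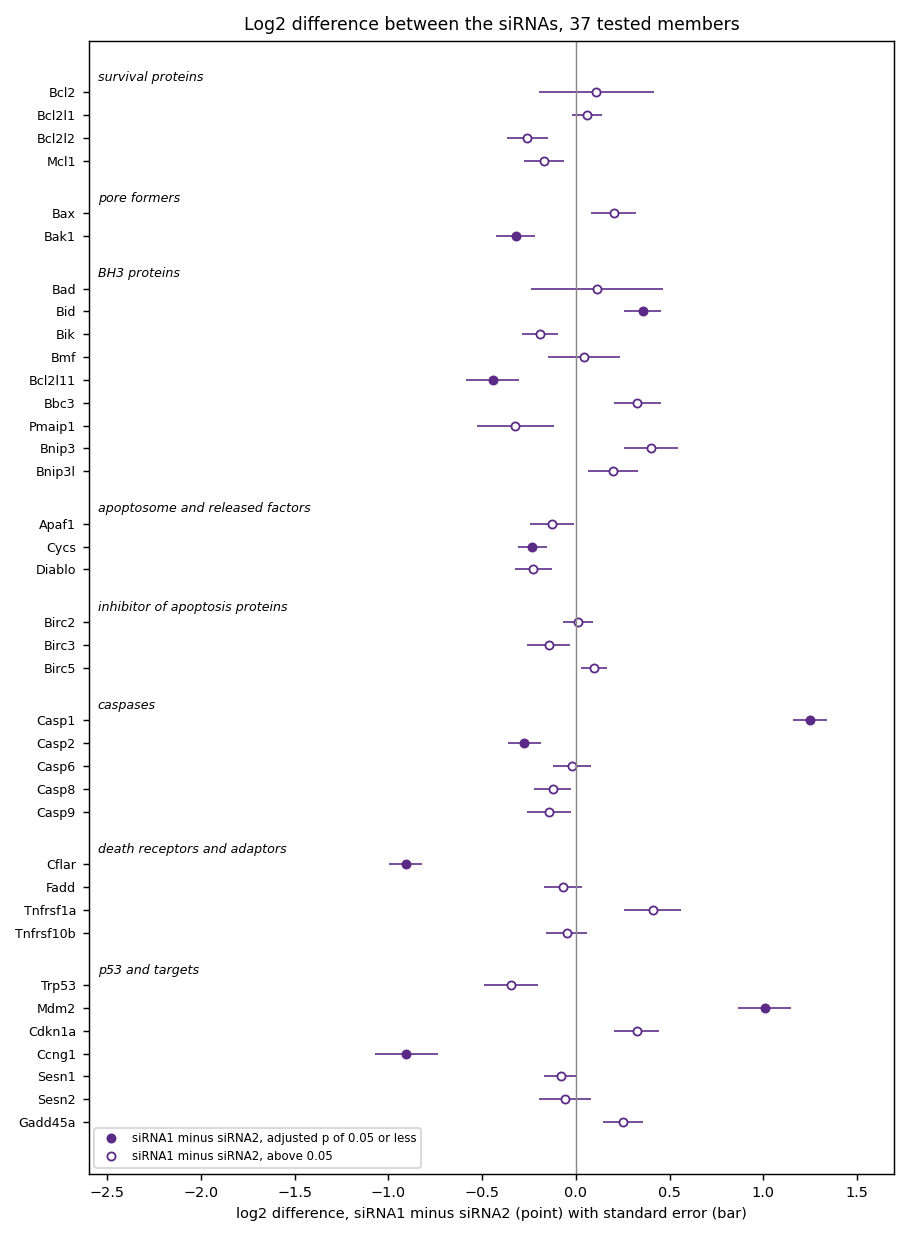
Log2 difference of the siRNA1 arrays (4) from the siRNA2 arrays (3) for the 37 tested members in order of role, by the brightest probe, with the SE from limma as a bar. Filled points mark an adjusted p of 0.05 or less; *Casp1* and *Mdm2* lie at 1.25 and 1.01, and *Cflar* and *Ccng1* at -0.91 and -0.90.

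The rest of the apoptosis pathway was counted over a list of 46 further genes, of which 35 were tested. In siRNA1-transfected MLTCs, 5 of these were higher and 8 were lower, or 37.1% called against 29.3% of all genes. The corresponding numbers for siRNA2 were 3 and 6, or 25.7% against 20.2%. The median log2 difference was -0.06 and 0.03. Among those called with both siRNAs in the same direction were *Dffb*, *Bnip1*, *Casp14* and *Bag4*.

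*Dffb*, the nuclease that cuts DNA in dying cells, was higher, with log2 differences of 1.13 ± 0.09 (SE; adjusted p = 1.15e-05) with siRNA1 and 0.98 ± 0.10 (SE; adjusted p = 7.57e-05) with siRNA2 from a dim probe (mean control signal 36.2). Its level was 98.3, 100.3, 102 and 99.2% on the 4 control arrays, 235, 227, 213 and 203% on the 4 siRNA1 arrays and 230.5, 181 and 183% on the 3 siRNA2 arrays. All siRNA arrays lay above all control arrays. *Bnip1*, a BH3 protein of membrane traffic, was lower, with log2 differences of -0.44 ± 0.08 (SE; adjusted p = 0.00208) with siRNA1 and -1.67 ± 0.09 (SE; adjusted p = 9.8e-07) with siRNA2, and its second probe gave -0.50 and -1.68. *Casp14*, a caspase known from skin, was lower, at -0.43 ± 0.10 (SE; adjusted p = 0.00812) and -0.74 ± 0.11 (SE; adjusted p = 0.000716). *Bag4*, which restrains death receptor signalling, was higher by 0.40 ± 0.10 (SE; adjusted p = 0.0102) and 0.46 ± 0.10 (SE; adjusted p = 0.00997) by its brightest probe, and its other probe was not called.

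In the rest of the p53 pathway, 33 of 40 listed genes were tested. In siRNA1-transfected MLTCs, 2 of these rose and 7 fell, or 27.3% called against 29.3% of all genes. The corresponding numbers for siRNA2 were 3 and 4, or 21.2% against 20.2%. The median log2 differences were -0.10 and 0.06. Among those called with both siRNAs in the same direction were *Gadd45b*, *Aen* and *Trp53inp1*. *Gadd45b*, a relative of *Gadd45a*, was lower, at -1.08 ± 0.11 (SE; adjusted p = 4.95e-05) with siRNA1 and -0.52 ± 0.12 (SE; adjusted p = 0.0114) with siRNA2, whereas *Gadd45a* was higher with siRNA1. *Aen*, a nuclease induced by p53, was higher by 0.49 ± 0.12 (SE; adjusted p = 0.0139) and 0.50 ± 0.13 (SE; adjusted p = 0.025), and *Trp53inp1*, a p53 cofactor, was lower, at -0.29 ± 0.08 (SE; adjusted p = 0.0231) and -0.37 ± 0.09 (SE; adjusted p = 0.0128). Of 19 tested proliferation markers, 1 was higher and 2 were lower with siRNA1 (15.8% called, against 29.3% of all genes), and 1 was higher and 0 were lower with siRNA2 (5.26% called, against 20.2%).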

How the data were processed

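Each array carried 1 Cy3-labelled sample. Per the file headers, the deposited signal intensities were made by the authors in Feature Extraction (version 9.5.1.1), which subtracted background and a spatial trend within each array, with no normalization between arrays. The same deposited files gave each spot's median and local background intensity and marks for outlier spots and spots well above background. The authors also deposited group averages of some probes as raw intensity and as log2 values from GeneSpring GX, whose normalization is not named. These were used for no result.

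Here the intensities were taken to log2, the 75th percentile over spots other than controls was subtracted, outlier spots were left out, and spots of a probe were averaged. Of 41174 probes, 24375 were named by RefSeq accession and 17 by the deposited table. Tested were 24248 probes that were well above background on all arrays of at least 1 group. The 11 arrays of all 3 groups entered 1 fit with lmFit and eBayes of limma (version 3.58.1) in R (version 4.3.3), and p was adjusted over all tested probes. A gene was taken by its brightest probe. The probe design predates the gene names, so no gene coordinates are given. Promoters came from the RefSeq table by symbol. All members called by any probe are named, with the Mamld1 check and at most 5 genes of each further list called with both siRNAs in 1 direction, some of which are not reported here. The members and lists were chosen with earlier results of these data known.

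The labels do not say whether replicate numbers pair the arrays, and the main fit did not pair them. After subtraction of group means, arrays of different groups with the same number correlated with a median of 0.30 (-0.18 to 0.53). Those with different numbers correlated with a median of -0.10. Array 1 of every group lay on slide 3, so number and slide partly coincide. Arrays of 1 slide correlated with a median of 0.30 (13 pairs) and those of different slides with -0.12 (27 pairs). The number of arrays limits the precision. Within groups, arrays correlated at 0.991 to 0.996 over probes, and no array was counted as a duplicate. The fit was also run on simulated data whose arrays were independent, so that run says nothing of the slide correlation given above. The alternatives were median and quantile scaling, other filters on dim probes, outlier spots kept, slide or replicate number as a block, each pair of groups fitted alone, eBayes with trend and robust options, the methods' test with a 2-fold change, the mean over a gene's probes, leaving out each array, and normexp (offset 50), which used median spot signals and was chosen after the data were seen.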

Additional observations from a re-analysis of the deposited data

Results flagged for a closer look

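The 2 siRNAs target the same gene, and 9 of 37 members (24.3%) differed between them by limma, a share near the 26.3% of all genes tested. The log2 differences of siRNA1 from siRNA2 were 1.25 for *Casp1* (adjusted p = 5.62e-06), 1.01 for *Mdm2* (adjusted p = 0.000414) and 0.36 for *Bid* (adjusted p = 0.0219). They were -0.91 for *Cflar* (adjusted p = 3.91e-05), -0.90 for *Ccng1* (adjusted p = 0.00271), -0.44 for *Bcl2l11* (adjusted p = 0.043), -0.32 for *Bak1* (adjusted p = 0.0477), -0.27 for *Casp2* (adjusted p = 0.0423) and -0.23 for *Cycs* (adjusted p = 0.0492). *Casp1* was the member called higher than control with 1 siRNA and lower with the other.

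Single arrays stood apart from the other 3 of their group by Dixon's test in 7 of 143 groups, over 72 probes of members, *Mamld1* and the other genes named, and chance gives about 1 in 20. Among the members these were probes other than the brightest of their gene. A *Bcl2l1* probe stood at 316% of the control mean on control array 4, with the others at 59.9 to 76.8%. The dimmer *Mcl1* probe stood at 81.9% on control array 4, with the others at 104 to 109%, and at 147% on siRNA1 array 3, with the others at 122 to 125%. *Cflar* stood at 85.4% on control array 3 by the second brightest probe (others 104 to 108%) and at 117% on control array 1 by a dimmer one (others 93.2 to 96.6%). *Mamld1* stood at 77% on siRNA1 array 2, with the others at 44.1 to 48.1%. The remaining 1 was the second probe of *Bnip1*, at 78% on siRNA1 array 2 (others 68.2 to 69.2%).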

How the results depend on the processing

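Of 768 refits of 32 differences of single genes under other settings, 564 kept direction and call, 201 kept the direction and lost the call, and 3 turned in sign. All 3 came from normexp background correction on median spot signals, with *Sesn1* with siRNA1 at -0.0932, *Mamld1* with siRNA1 at 0.647 and with siRNA2 at 0.439. That setting also moved the median over all tested probes to 0.22 with siRNA1 and 0.17 with siRNA2, from -0.05 and -0.01, and left 2 members called with siRNA1, and 0 each with siRNA2, between the siRNAs and with both in 1 direction (by limma without adjustment, 8, 4 and 5 in the 3 comparisons). The cause was not tested. The count of called members with siRNA1 (10) became 3 with a 2-fold condition, whether by limma or by the methods' test with or without adjustment, that with siRNA2 (11) became 0, that between the siRNAs (9) became 2, and that with both siRNAs (5) became 0, a stricter rule by construction. Median scaling gave 6 with siRNA2, 5 between the siRNAs and 3 with both. Testing all probes gave 4 between the siRNAs, and the mean over a gene's probes gave 2 with both. Leaving out 1 array gave 8 to 10 members with siRNA1, 7 to 11 with siRNA2, 4 to 8 between the siRNAs and 3 to 5 with both. The count with siRNA2 was 7 without control array 1. The count between the siRNAs was 4 without siRNA1 array 1 or siRNA2 array 2 and 5 without control array 2, siRNA1 array 3 or siRNA2 array 3. That with both was 3 without control array 1 or siRNA2 array 1. With the slide as a block, limma called 14, 13 and 13 members in the 3 comparisons and lost none of the original calls. It added *Bak1*, *Bnip3l*, *Cycs* and *Birc3* with siRNA1, *Casp9* and *Gadd45a* with siRNA2, and *Bcl2l2*, *Bnip3*, *Cdkn1a* and *Gadd45a* between the siRNAs. With the replicate number as a block the counts were 11, 13, 13 and, with both siRNAs, 6. The slide and replicate blocks moved no count by over 1.5 times. The share of all genes called was counted for the main fit alone, so no count under another setting has one beside it. Few arrays and dim probes, such as those of *Mamld1*, *Bad* and *Bcl2*, limit these differences.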

Other observations

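*Naip2*, an inflammasome sensor from the list of further apoptosis genes, was named after its values were seen, because its level moved as that of *Casp1* did, the protease that the inflammasome activates. The level of *Naip2* was 97.4, 88.6, 112 and 104% on the 4 control arrays, 127, 129, 147 and 140.3% on the 4 siRNA1 arrays and 79.6, 69.5 and 71.3% on the 3 siRNA2 arrays. The 3 groups did not overlap. Its log2 difference was 0.44 ± 0.09 (SE; adjusted p = 0.00527) with siRNA1 and -0.45 ± 0.10 (SE; adjusted p = 0.0105) with siRNA2, and siRNA1 differed from siRNA2 by 0.89 ± 0.10 (SE; adjusted p = 0.000114) by limma. Because *Naip2* was picked for this pattern, these values do not test a link with *Casp1*. Of all genes tested, 1.31% were called in opposite directions with the siRNAs. *Naip5*, from the same list, did not move as *Casp1* did. Its level was 94.6 to 107% on the control arrays, 81.9 to 92.5% on the siRNA1 arrays and 96.9 to 106% on the siRNA2 arrays.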
